A study of Mus musculus with 4 samples.

Results

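Polycomb repressive complex 2 (PRC2) was followed through 9 genes for its subunits, Ezh2, Ezh1, Eed, Suz12, Jarid2, Aebp2, Mtf2, Phf19 and Phf1, listed by symbol and found as 9 of the 25239 gene rows of each count table. All 9 passed the filter on low counts. They were read in 4 RNA-seq libraries of mouse embryonic stem cells (mESC), made from polyadenylated RNA, with both Ogt alleles flanked by loxP sites (Ogt fl/fl), so controls and knockout cells carried the same floxed alleles. The Ogt iKO group held 2 libraries of cells cultured for 6 days with 4-hydroxytamoxifen (4-OHT), and the control group held 2 libraries of cells cultured over the same 6 days without it. The product of Ogt, O-GlcNAc transferase, attaches N-acetylglucosamine to serine and threonine of nuclear and cytosolic proteins. All cultures grew with LIF on feeder fibroblasts treated with mitomycin C. The recombinase that 4-OHT acts on and its promoter are not given in the sources used here, and neither is the number of clones or independent cultures, so p values measure the spread between these libraries, which may be technical. Cells positive for yellow fluorescent protein were sorted in the 4-OHT group alone, and no group received 4-OHT with Ogt intact, so the agent, the sort and the loss of Ogt cannot be told apart.

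PRC2 places methyl groups on lysine 27 of histone H3, a mark of silenced chromatin that covers many developmental genes in embryonic stem cells. EZH2 or its paralogue EZH1 carries the catalytic SET domain and is active only together with EED, which binds the methylated histone tail, and SUZ12, the scaffold of the complex. Accessory subunits bind SUZ12 in alternative assemblies, PRC2.1 with a Polycomb-like protein (PHF1, MTF2 or PHF19) and PRC2.2 with JARID2 and AEBP2, and guide the complex to CpG-rich DNA or to ubiquitinated histone H2A.

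The libraries held 14668489 to 16504204 counts, of which the 9 genes took 30772 and 30815 in control and 22592 and 23718 in Ogt iKO. Levels are given in CPM, the count relative to library size, and a count of 0 would leave room for 0.175 to 0.195 CPM (3 counts, scaled like all levels here), counting error only. Counts of the targeted gene, Ogt, were 2963 and 3108 in control and 437 and 389 after 4-OHT, 12.9% of the control level after scaling. All 10 embryonic stem cell markers examined were detected in every library, and 9 of them were lower in Ogt iKO, where 32% of all genes tested were lower, 33.2% higher and 65.3% called in either direction, with summed levels of 2384 and 2704 CPM against 4413 and 4420. Fibroblast markers were present too, none of the 17 was at 0, and 3 were higher and 1 lower in Ogt iKO, a smaller share called than the 65.3% among all genes. Their sum was 4303 CPM in Ogt iKO replicate 1, 1805 in replicate 2, and 2519 and 2779 in the controls. Ogt iKO replicate 2 thus lay below both controls. Above both lay Ogt iKO replicate 1. Without it 13 fibroblast markers were lower, and without replicate 2 of Ogt iKO 14 were higher. The labels describe CD90.2 as the surface marker that picked the stem cells and CD326 as the one that left feeders out. Thy1, which encodes CD90, had 437 and 138 counts in Ogt iKO and 241 and 240 in control, and Epcam, which encodes CD326, had 4452 to 5376 in all libraries. These roles are the reverse of the usual ones, since CD326 is commonly a stem cell marker and CD90 is found on fibroblasts, and the marker lists used here hold Epcam with the stem cell markers and Thy1 with the fibroblast markers. Neither count is therefore read as a measure of the sort or of feeder content. In bulk RNA, fewer cells of a type and less RNA per cell cannot be told apart.

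The catalytic subunits moved in opposite directions. Ezh2, the main methyltransferase of dividing cells, fell to 35.6% of control, the largest change among the 9 genes in either direction. Its level was 321 and 303 CPM in the control libraries and 108 and 114 CPM in the Ogt iKO libraries, on a scale of library sizes adjusted by trimmed means (TMM). Both knockout libraries lay far below both controls. The log2 fold change of Ezh2 was -1.49 (SE 0.0607, 95% interval -1.63 to -1.35, edgeR quasi-likelihood test, adjusted p 8.801e-07, Benjamini-Hochberg over 14525 genes). Ezh1, the paralogue known for its part in cells that divide little, was at 32.4 and 36.2 CPM in control and at 57.3 and 61.6 CPM in Ogt iKO. Both knockout values lay above both controls, a log2 fold change of 0.79 (SE 0.0879, 95% interval 0.59 to 0.99, edgeR adjusted p 8.818e-05). Without Ogt iKO replicate 1, the library with the highest sum of fibroblast markers, the values were -1.45 for Ezh2 and 0.85 for Ezh1. The Ogt iKO library that remained had a lower sum of these markers than either control. The part of fibroblast RNA in the values of Ezh2 and Ezh1 was not tested.

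The start regions of these paralogues differ in sequence, which is why both are shown. Each comes from the 250 bases before the start site in RefSeq (GRCm38.p6), 5′ to 3′ on the gene's strand, with bases under any annotated exon left out and each CCAAT box, the pentamer recognised by NF-Y, in capitals in either orientation. Ezh2 lies on the minus strand of chromosome 6 from 47530274 to 47595270, and the 125 bases at chr6:47595059-47595183, which end 29 bases before the start used, are given. That start lies inside the span of the gene, which reaches farther upstream through another annotated first exon, so the bases shown lie within the span too, between exons. Ezh1 lies on the minus strand of chromosome 11 from 101191115 to 101226463, and all 250 bases, chr11:101226464-101226713, are given.
Ezh2: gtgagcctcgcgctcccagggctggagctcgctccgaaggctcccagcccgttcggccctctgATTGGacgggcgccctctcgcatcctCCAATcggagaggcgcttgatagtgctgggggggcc
Ezh1: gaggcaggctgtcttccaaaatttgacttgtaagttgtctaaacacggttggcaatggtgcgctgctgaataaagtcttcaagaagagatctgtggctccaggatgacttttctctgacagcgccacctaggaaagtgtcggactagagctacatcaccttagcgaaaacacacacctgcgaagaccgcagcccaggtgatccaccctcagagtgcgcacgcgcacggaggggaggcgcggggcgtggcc
The 250 bases of Ezh2 held 3 CCAAT boxes, which began 90, 64 and 11 bases before the start, the first and second of them within the letters above. Those of Ezh1 held none. The window of 300 bases, which adds 50 after the start, was 64.3% G and C with 31 CpG for Ezh2 and 59.3% with 23 CpG for Ezh1. An E2F motif (TTTCGCGC or TTTGGCGC on either strand) began at base 4 after the Ezh2 start and was in 1 of the 13 windows of the 9 genes, against 0.813% of all 32851 windows. A match describes letters only and is not evidence of binding.

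Within each library the balance between the paralogues shifted. Per kilobase of exon, Ezh1 made up 8.32% and 9.69% of the sum of Ezh1 and Ezh2 in the controls and 32.2% and 32.7% in Ogt iKO. The ratio of Ezh1 to Ezh2 was 0.0908 and 0.107 in control and 0.474 and 0.487 in Ogt iKO, a difference of 2.28 on the log2 scale that does not depend on how libraries are scaled to each other. An exact permutation test of 2 against 2 cannot go below 0.33, two-sided, and gave p 0.33. Ezh2 nevertheless stayed above Ezh1 in all 4 libraries. The sum of both fell from 51.3 CPM per kb ± 1.53 (SD, n = 2) to 24.6 ± 0.967 (SD, n = 2), 48% of control, so the added Ezh1 was smaller than the lost Ezh2.

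**Figure D1:**
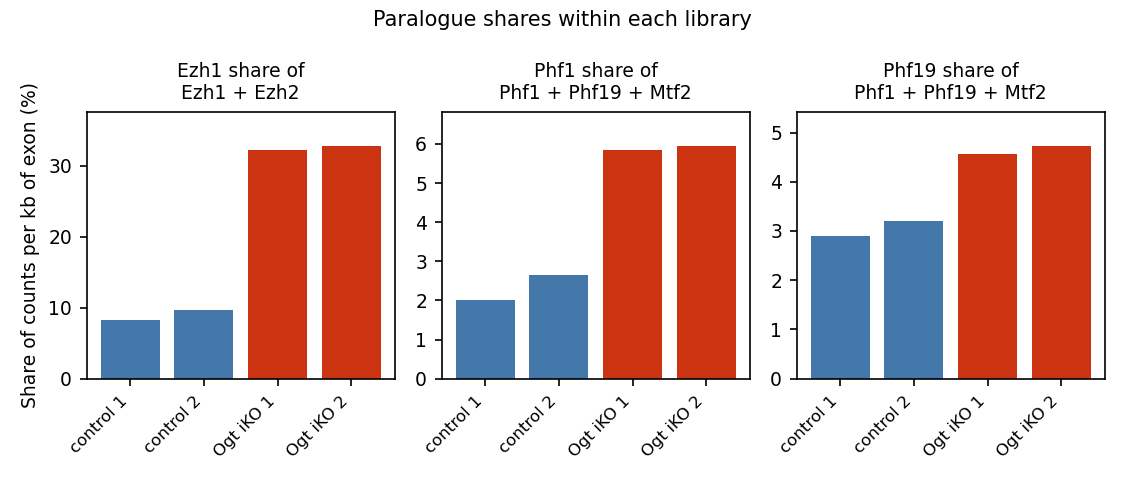
Share (%) of the summed counts per kilobase of exon in each library for Ezh1 within Ezh1 and Ezh2 (left), and for Phf1 (middle) and Phf19 (right) within the 3 Polycomb-like genes, with blue bars for control and red bars for Ogt iKO, 1 bar per library. In each panel both Ogt iKO bars stand above both control bars, from 8.32% and 9.69% to 32.2% and 32.7% for Ezh1.

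The non-catalytic core changed little beside Ezh2. Eed, on chromosome 7 from 89954654 to 89980976, was at 245 and 244 CPM in control and 185 and 213 CPM in Ogt iKO. Suz12, on chromosome 11 from 79993106 to 80034123, was at 417 and 426 CPM in control and 359.8 and 364 CPM in Ogt iKO. In neither gene did the groups overlap, and the knockout libraries of Eed were the farther apart. The log2 fold change was -0.29 for Eed (SE 0.0722, adjusted p 0.006578) and -0.22 for Suz12 (SE 0.054, adjusted p 0.006899) in edgeR's test, and both calls were lost under scaling by library totals only (-0.13 and -0.050). Eed and Suz12 therefore stood at 81.5% and 85.9% of control where Ezh2 stood at 35.6%. Rbbp4 and Rbbp7, the histone-binding subunits that PRC2 shares with other complexes, went different ways. Rbbp4 fell from 899 and 822 CPM to 609 and 623 CPM (log2 fold change -0.48, SE 0.0631, edgeR adjusted p 0.0002176). Rbbp7 rose from 477 and 445 CPM to 547 and 581 CPM (0.29, SE 0.0625, edgeR adjusted p 0.003404).

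Of the PRC2.2 subunits, Jarid2 fell and Aebp2 did not pass the test. Jarid2 encodes a catalytically inactive Jumonji protein that stimulates PRC2 and binds its chromatin sites. It lies on the plus strand of chromosome 13 from 44730774 to 44921643 and was at 488 and 531 CPM in control and 284 and 302 CPM in Ogt iKO, with a clear gap between the groups. Its log2 fold change of -0.80 (SE 0.0652, 95% interval -0.95 to -0.65, edgeR adjusted p 1.807e-05) was the second largest fall among the 9, and it was -0.75 without Ogt iKO replicate 1. The 250 bases before the first of its RefSeq starts, chr13:44730524-44730773, are given beside those of Ezh2, the other gene with a large fall, with a CCAAT box, 179 bases before the start, in capitals.
Jarid2: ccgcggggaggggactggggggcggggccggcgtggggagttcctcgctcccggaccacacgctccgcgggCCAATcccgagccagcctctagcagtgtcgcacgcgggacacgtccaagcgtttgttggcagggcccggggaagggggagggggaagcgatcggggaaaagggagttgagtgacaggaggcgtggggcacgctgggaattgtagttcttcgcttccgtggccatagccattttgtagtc
Aebp2, a zinc finger protein that stabilises the core, was at 135 and 149 CPM in control and 130.4 and 134 CPM in Ogt iKO. These values lay side by side, 134 under 135, and the log2 fold change of -0.10 (95% interval -0.25 to 0.05, edgeR adjusted p 0.2099) turned to 0.068 with library totals. The ratio of Aebp2 to Jarid2 per kilobase of exon went from 0.272 and 0.276 in control to 0.453 and 0.438 in Ogt iKO.

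The Polycomb-like genes of PRC2.1, whose Tudor and winged-helix domains bind modified histones and CpG DNA, did not move together: Mtf2 fell, Phf1 rose and Phf19 did not pass the test. Mtf2, the predominant one in these cells, fell from 339 and 304 CPM to 242 and 246 CPM, with the controls further apart than the knockout libraries and no overlap. Its log2 fold change was -0.40 (SE 0.0659, 95% interval -0.55 to -0.25, edgeR adjusted p 0.000808). Phf19 stood at 9.11 and 9.13 CPM in control and 10.9 and 11.5 CPM in Ogt iKO, from 140 to 186 counts. The groups did not overlap, but the log2 fold change of 0.29 did not pass the test (95% interval -0.038 to 0.62, edgeR adjusted p 0.1056) except with library totals (0.46, adjusted p 0.02091). Phf1 had 68 and 80 counts in control and 165 and 155 in Ogt iKO, or 4.39 and 5.22 CPM against 9.65 and 9.99 CPM. That is 204% of the control level, a log2 fold change of 1.03 (SE 0.174, 95% interval 0.63 to 1.43, edgeR adjusted p 0.0009191).

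The count of Phf1 is less certain than the others. Phf1 lies on chromosome 17 from 26933127 to 26937908, and 39.3% of its exon length in GENCODE M21 lies under exons of the opposite strand, among them those of Cuta. Counts of Cuta itself were 506 and 487 in control and 752 and 692 after 4-OHT, a log2 fold change of 0.46 (SE 0.0778). The libraries came from a stranded kit, but which strand was counted is not given in the sources used here, and the part of Cuta reads in the rise of Phf1 was not tested. Of the other 8 genes, none had over 6.93% of its exon length under the opposite strand. The 250 bases before the Phf1 start held no CCAAT box and 4 GGGCGG boxes, the core recognised by SP factors.

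Mtf2 made up 95.1% and 94.2% of the 3 Polycomb-like genes per kilobase in control and 89.6% and 89.3% in Ogt iKO. The remainder was shared by Phf1 (2.01% and 2.64% against 5.85% and 5.94%) and Phf19 (2.89% and 3.2% against 4.56% and 4.72%). Both shares also rise when Mtf2 falls, and Phf19 itself was not called higher with TMM. The sum of the 3 genes was 59.6 CPM per kb ± 4.18 (SD, n = 2) in control and 47.8 ± 0.650 (SD, n = 2) in Ogt iKO, 80.2% of control.

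**Figure D2:**
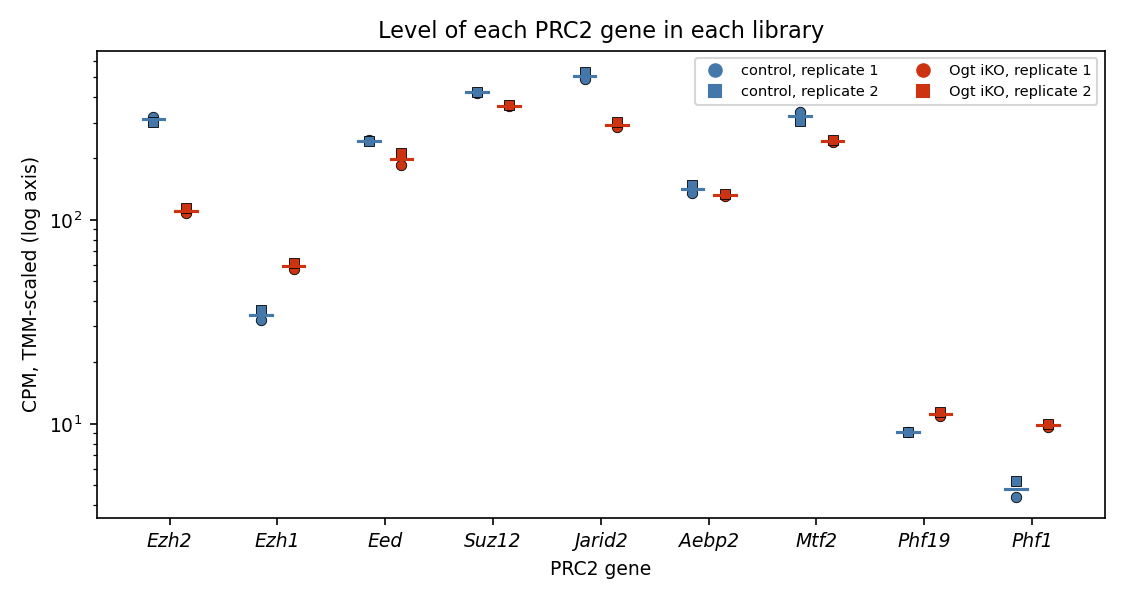
Level of each of the 9 genes in each library (CPM scaled by TMM, log axis), with circles for replicate 1, squares for replicate 2, blue for control, red for Ogt iKO and bars at group means. Groups compare within a gene only, since CPM is not divided by length. The groups lie farthest apart for Ezh2, at 321 and 303 against 108 and 114 CPM, and nearest for Aebp2.

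Levels of different genes were compared per kilobase of exon (union of all exons in GENCODE M21). In control the order was Suz12 (85.2 CPM per kb), Eed (63.8), Mtf2 (56.4), Jarid2 (52.5), Ezh2 (46.7), Aebp2 (14.4), Ezh1 (4.61), Phf19 (1.81) and Phf1 (1.38). Mtf2 and Jarid2 overlapped in this order, with 53.3 and 59.5 against 50.3 and 54.7 CPM per kb, and the other neighbours did not. In Ogt iKO the order kept its first 7 places, but Ezh2 came down to 16.6 CPM per kb ± 0.552 (SD, n = 2), close to Aebp2 at 13.4 ± 0.276 (SD, n = 2). Phf1 (2.82) and Phf19 (2.22) changed places. Lengths decide part of this order. With the longest coding transcript in place of all exons, the control order began with Eed (118 CPM per kb), Ezh2 (112), Suz12 (96.4), Jarid2 (85.0) and Mtf2 (79.2), and the Ogt iKO order began with Eed (96.4), Suz12 (82.8), Mtf2 (60.0), Jarid2 (48.9) and Ezh2 (39.9). By either length Ezh2 stood in place 5 in Ogt iKO.

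Counted together, 5 of the 9 genes were lower (Ezh2, Eed, Suz12, Jarid2 and Mtf2), 2 were higher (Ezh1 and Phf1) and 2 did not pass (Aebp2 and Phf19). Among all genes tested 65.3% were called, 32% lower and 33.2% higher, so 7 called of 9 is close to the background and is not a result about PRC2. The groups did not overlap for 9 of 9 genes, against 83.2% of all genes. The median log2 fold change of the 9 was -0.22 beside 0.024 for all genes. Scaling by library totals raised the median of all genes to 0.19 and the calls then read 3 higher and 3 lower of the 9, and 65% of the called genes were higher among all genes, against 50.9% with TMM. The falls of Ezh2, Jarid2 and Mtf2 and the rises of Ezh1 and Phf1 were called under both scalings, with log2 fold changes under library totals of -1.32, -0.63, -0.23, 0.96 and 1.198.

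**Figure D3:**
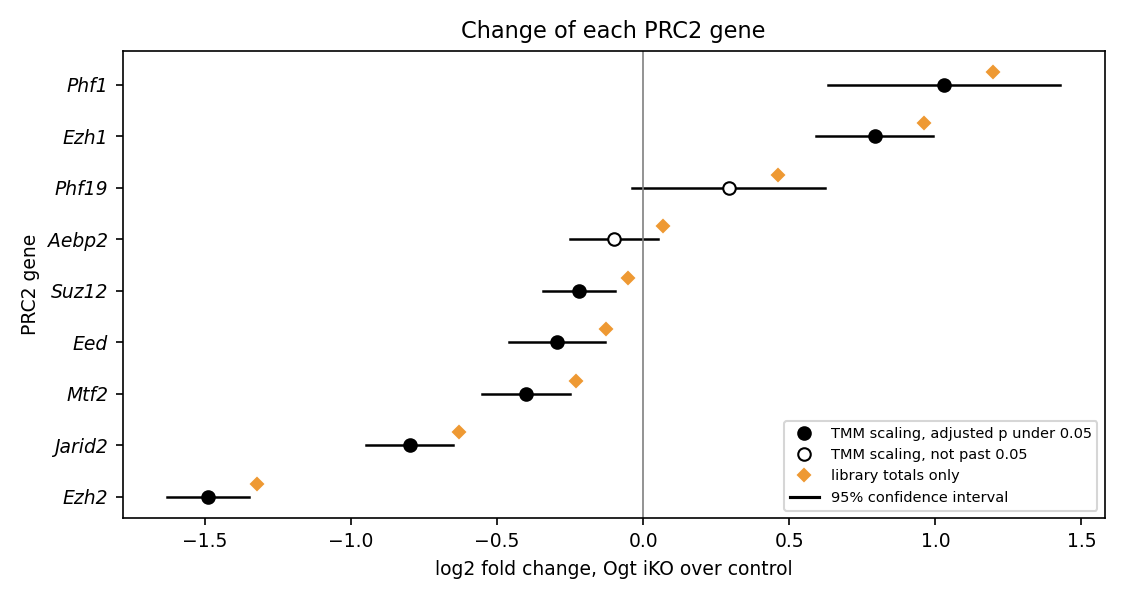
Log2 fold change (x axis) of each of the 9 genes (y axis), with points for TMM scaling (filled where the adjusted p is under 0.05), lines for 95% confidence intervals and orange diamonds for scaling by library totals. Ezh2 at -1.49 and Jarid2 at -0.80 lie to the left, Ezh1 at 0.79 and Phf1 at 1.03 to the right, and the intervals of Aebp2 and Phf19 cross 0.

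Other proteins that join or restrain PRC2 were read from a list of 8 genes, of which 2 were higher, 2 were lower and 4 did not pass, beside 65.3% called among all genes tested (median log2 fold change -0.030). The largest change was that of Ezhip, listed under its older symbol AU022751, an inhibitor that occupies the EZH2 active site and is known from the germline. Ezhip lies on chromosome X from 6081218 to 6083420 and had 265 and 154 counts in control and 786 and 673 in Ogt iKO, or 17.1 and 10.04 CPM against 46.0 and 43.4 CPM. The controls were unequal, yet both lay under both knockout libraries, and the log2 fold change was 1.72 (SE 0.191, edgeR adjusted p 8.894e-05), with 1.37 to 2.15 when 1 library was left out. Epop, a PRC2.1 partner that links the complex to elongin, was at 243 and 219 CPM in control and 185 and 204 CPM in Ogt iKO (log2 fold change -0.25, edgeR adjusted p 0.01593). Its call was lost without Ogt iKO replicate 1 (-0.17, adjusted p 0.05939), without control replicate 1 (-0.18, adjusted p 0.1075) and with library totals (-0.079). The elongin genes Elob and Eloc had values of -0.15 and -0.14, and turned to 0.021 and 0.026 with library totals. Elob was called lower without control replicate 2 (-0.23, edgeR adjusted p 0.04133). Lcor and Lcorl, whose loci encode the PALI proteins of PRC2.1, had values of 0.081 and 0.33, both short of the threshold, and were called with library totals (0.25 and 0.50).

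Across the 9 genes, CCAAT (either strand) was found in 7 of 13 promoter windows (53.8%), against 37.4% of all windows, and these belonged to 6 genes, Aebp2, Eed, Ezh2, Jarid2, Mtf2 and Suz12. The box of Eed lay after the start, and the 3 boxes of Mtf2 were in a second window with 2 CpG. GGGCGG was in 8 of 13 (61.5%) against 35.7% of all windows. The NRF1 core GCGCATGC and the ETS motif CCGGAAG were in 0 of 13, against 2.71% and 8.86%. These are descriptions with no test. Several genes have more than 1 window, and 3 windows, 1 of Mtf2 and 2 of Aebp2, held only 2 to 4 CpG, beside a median of 7 over all windows and 17 to 41 in the other 10. Ezh1, Phf1 and Phf19, which were higher or not called, had no CCAAT in their windows. Aebp2, which was not called, had 1.

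Among the genes whose pattern over the 4 libraries lay nearest to that of Ezh2, by Euclidean distance of centred log2 CPM among 11227 other genes averaging 2 or more in log2 CPM, were Dis3 (distance 0.0273), Esyt1 (0.0328), Zfp759 (0.0411) and Hddc2 (0.0424). These 4 fell by 1.48 to 1.51 on the log2 scale, as Ezh2 did by 1.49. With 4 libraries in 2 groups this likeness is mostly the size of the fall. Among the 9 genes the nearest to Ezh2 was Jarid2, at a distance of 0.705, and Ezh1 and Phf1 lay 0.237 apart from each other. Suz12 and Aebp2 were the closest pair, at 0.145.

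S phase genes, many of which are E2F targets as Ezh2 is known to be, were lower beside it. Of 15 genes, 12 were lower and 0 higher in edgeR (0 higher at an unadjusted p under 0.05 and 0 higher in DESeq2), beside 32% lower and 33.2% higher among all genes tested, with a median log2 fold change of -0.57. Ccne1, the cyclin of S phase entry, had a log2 fold change of -2.48, the helicase subunits Mcm3 and Mcm4 of -1.45 and -1.21, and Rrm2, a subunit of ribonucleotide reductase, of -0.96. Summed levels of the list were 6371 and 6132 CPM in control and 3676 and 3854 CPM in Ogt iKO. The part of cell cycle genes in the fall of Ezh2 was not tested.

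Genes known to carry the PRC2 mark in embryonic stem cells, mostly lineage transcription factors, formed a list of 58. Of these 45 passed the low-count filter, and 24 were higher, 13 lower and 8 not called, where 33.2% of all genes tested were higher and 32% lower. A gene of low level that passed through the group where it is high had to differ, so the median of 0.94 over the tested genes is a description. Fitted without the filter, the median over all 58 was 0.95. Cdkn2a, which encodes inhibitors of the cell cycle and is a classical PRC2 target, went from 12.3 and 11.7 CPM to 55.8 and 57.6 CPM (log2 fold change 2.24, SE 0.0869, edgeR adjusted p 7.24e-07), and Neurog3, a factor of endocrine progenitors, from 1.87 and 2.09 CPM to 21.0 and 20.4 CPM (3.38, SE 0.165, edgeR adjusted p 1.663e-06). Neural factors were among the lower genes. Sox1 went from 65.3 and 57.4 CPM to 12.0 and 11.9 CPM (-2.36, SE 0.0982, edgeR adjusted p 9.549e-07), and Gbx2 from 83.0 and 63.6 CPM to 16.5 and 17.3 CPM (-2.12, SE 0.131, edgeR adjusted p 5.029e-06). The summed level of the 58 genes was 446 and 428 CPM in control and 388 and 397 CPM in Ogt iKO, so the sum and the median went different ways. DESeq2 called 13 higher and 11 lower, with no adjusted p for 8 of the 58.

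Genes of PRC1, the complex that reads the PRC2 mark or ubiquitinates histone H2A, were mixed as well. Of 21 genes 10 were higher, 7 lower and 4 not called, beside 33.2% higher and 32% lower among all genes tested, with a median log2 fold change of 0.079, and 4 in place of 7 were lower with library totals. Bmi1, a core ring-finger partner, went from 17.4 and 17.3 CPM to 38.6 and 34.6 CPM (log2 fold change 1.08, edgeR adjusted p 2.866e-05). Scml2 rose by 1.76 and Phc2, a polymerising subunit, by 0.94, while Pcgf6, of a germline-silencing variant, fell by 0.65. Their edgeR adjusted p values ran from 5.176e-05 to 5.637e-05.

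**Figure D4:**
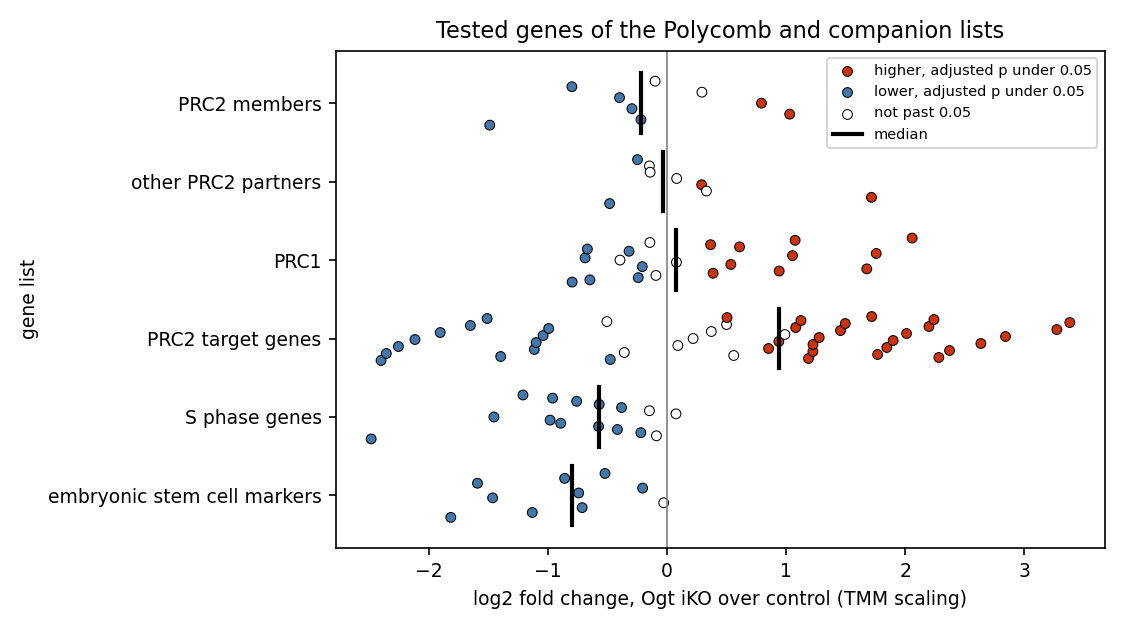
Log2 fold change (x axis, TMM scaling) of each tested gene in 6 lists (y axis), with red for higher, blue for lower and white for not past an adjusted p of 0.05, black bars at medians, and vertical scatter within a list only for legibility. The PRC2 target genes spread from -2.40 to 3.38, while 12 of 15 S phase genes and 9 of 10 stem cell markers are lower.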

How the data were processed

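Polyadenylated RNA of 2 Ogt iKO and 2 control libraries was grouped by the titles in the labels. The authors deposited raw counts per gene symbol, 1 whole number per row, with no normalization. The submitters' processing notes name STAR, Picard and the build mm10. Versions, annotation, counted strand and the treatment of reads with several matches are not given in the sources used here. Totals were 14668489 to 16504204 counts. The test was edgeR's quasi-likelihood test (version 4.0.16, R 4.3.3) with TMM and filterByExpr on all 4 libraries and no covariate, with Benjamini-Hochberg adjustment over 14525 genes and a threshold of 0.05. The code was tested on simulated data. Positions and promoters came from RefSeq GRCm38.p6, exon lengths from GENCODE M21, both on the assembly that mm10 names. Only letters were matched for motifs, on both strands. DESeq2 1.42.0, other scalings, filters, a robust spread, a replicate block, glmTreat and leaving out each library were alternatives. The 9 genes and the lists were chosen with earlier results of these data known. Named beside them are all 8 other PRC2 partners, up to 4 genes per list with the smallest adjusted p, and the 5 nearest to Ezh2, of which 1 is not reported here. Cuta, Thy1, Epcam, Elf5, Sox17 and Foxa2 were added after their values were seen, outside that rule.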

Additional observations from a re-analysis of the deposited data

How the results depend on the processing

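The calls of Ezh2, Ezh1, Jarid2, Mtf2 and Phf1 held under every alternative fitted per gene, and leaving out 1 library gave 2 higher and 5 lower of the 9 genes each time. Of the 9, 3 were lower with library totals (where Eed and Suz12 were lost) and 3 with glmTreat against a fold of 1.2. Of the 8 other PRC2 partners, glmTreat left 1 higher and 1 lower, in place of 2 and 2. Library totals turned the sign of Aebp2 (0.068), Elob (0.021) and Eloc (0.026), none of them called. With the longest transcript as length the control log2 ratio of Jarid2 to Mtf2 turned from -0.10 to 0.10, as it does by construction when lengths change, and the difference between groups did not move. With the replicate number as a block, 2 of the 9 were higher and 5 lower, and 4922 genes were higher and 4719 lower over all, against 4827 and 4651 without it. Same-numbered libraries deviated together only weakly (correlation 0.0859 across genes), so the numbers were not taken as pairs. For the PRC2 target genes DESeq2 gave 13 higher against 24 in edgeR, and the cause was not tested. Without Ogt iKO replicate 1 or control replicate 1, 1 of the other 8 partners was lower in place of 2, and without control replicate 2, 3 were. Counts of 68 to 186 per library limit Phf1 and Phf19, whose intervals are the widest of the 9.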

Other observations

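Enzymes that act against PRC2 on the same residue had values between -0.21 and 0.47. Kdm6a, a demethylase of histone H3 lysine 27 encoded on the X chromosome, had a log2 fold change of -0.21 (edgeR adjusted p 0.02116), and Kdm6b, its inducible paralogue, had 0.13 and was not called. Of the acetyltransferases of that lysine, Crebbp rose by 0.47 (edgeR adjusted p 0.0007866) and Ep300, at 0.17, was not called. Of these 4 genes, 1 was higher and 1 lower, beside 33.2% and 32% of all genes tested. With library totals 0 were lower and 3 higher, under a scaling that moved all genes the same way (6105 higher and 3288 lower). The lower call, that of Kdm6a, was also lost without Ogt iKO replicate 1, without control replicate 2, at an adjusted p under 0.01 and with glmTreat (0 lower each). There were 2 higher without Ogt iKO replicate 2 or control replicate 2. Among 12 genes of histone H3 lysine 4 methyltransferase complexes, which oppose Polycomb silencing, 1 was higher and 6 were lower, with a median of -0.17, and the 7 called are near the 65.3% called among all genes. Rbbp5 fell by 0.51, Kmt2c by 0.68 and Setd1a by 0.22, and Men1 rose by 0.32. With library totals the count was 3 higher and 2 lower. It was 2 higher and 3 lower without control replicate 2, and 2 were higher without Ogt iKO replicate 2 or with the replicate block. With glmTreat 0 were higher and 2 lower, and at an adjusted p under 0.01, 2 were lower.

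Markers of trophoblast and endoderm were higher in Ogt iKO for 7 of the 10 tested (of 12 listed, 5 of which are also among the PRC2 target genes), with 1 lower, beside 33.2% higher and 32% lower among all genes tested. Members with few control counts, such as Sox17 (1 and 2) and Foxa2 (6 and 4), passed the filter on low counts through the group where they are high, so the count is a description. The epithelial keratins Krt8 and Krt18 rose by 3.71 and 3.60, and Dab2, an endocytic adaptor of extraembryonic endoderm, by 2.37. Tfap2c fell by 2.28. Summed levels were 438 and 439 CPM in Ogt iKO and 138 and 125 CPM in control. Elf5, which defines trophoblast stem cells, was at 0 in 3 of 4 libraries and at 2 counts in Ogt iKO replicate 1.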
